A study of Mus musculus with 20 samples.

Results

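Receptor genes of the male preoptic area (POA) for estrogen and progesterone are described here across housing and genotype: Esr1 and Esr2, which encode the nuclear estrogen receptors alpha and beta, Pgr, which encodes the nuclear progesterone receptor, Gper1, which encodes a G protein-coupled estrogen receptor of membranes, and Greb1, a gene that estrogen induces in breast cancer cells. They were chosen by symbol as gonadal steroid receptors together with Greb1, and all 5 were found among the 25239 genes of the count table. Bulk RNA-seq of the POA covered 20 males in 4 groups of 5, with 32353578 to 39871353 counted reads per mouse. Control mice of matching background and dnFGFR mice were paired at postnatal day (PND) 20 with a same-sex (SS) male or an opposite-sex (OS) female, and tissue was collected at PND 320, after 300 days of cohabitation. In dnFGFR mice a rat GnRH promoter drives a dominant negative FGFR1 that has no kinase domain. GnRH neurons, in which this promoter is active, are a small share of the cells in these samples. The dnFGFR mice came from breeding pairs homozygous for the transgene. OS-housed males bred with their partners, so that OS housing also held litters. Genotype and the date of sacrifice cannot be told apart, because control mice were collected in June and July and dnFGFR mice in May, with 1 dnFGFR SS mouse in November.

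Nuclear estrogen and progesterone receptors wait in complexes with heat shock chaperones, and after binding hormone they attach to DNA and recruit coactivators or corepressors. In the male POA, testosterone from the testis is converted to estradiol by aromatase (Cyp19a1), and neurons that carry estrogen receptor alpha take part in male sexual behavior and in feedback to GnRH neurons. Pgr is a classical target of estrogen receptor alpha in hypothalamic neurons. GnRH neurons themselves are known to carry estrogen receptor beta rather than alpha.

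The promoters of Pgr, Greb1 and Esr2 are shown because Pgr and Greb1 are textbook estrogen targets and Esr2 is itself a receptor, and because these windows held 0 exon bases of GENCODE M21. Each is the 250 bases before a start in RefSeq (GRCm38.p6), read 5′ to 3′ on the gene's own strand. The windows lie at chr9:8899583-8899832 on the plus strand (Pgr), chr12:16800887-16801136 on the minus strand (Greb1, the first of 2 starts) and chr12:76177260-76177509 on the minus strand (Esr2). Capitals mark a GC box in Pgr and the GGTCA arm of the estrogen response element in Greb1 and Esr2, found on either strand. The Pgr and Greb1 windows lie inside the span RefSeq gives the gene, and the Esr2 window just before it.
Pgr: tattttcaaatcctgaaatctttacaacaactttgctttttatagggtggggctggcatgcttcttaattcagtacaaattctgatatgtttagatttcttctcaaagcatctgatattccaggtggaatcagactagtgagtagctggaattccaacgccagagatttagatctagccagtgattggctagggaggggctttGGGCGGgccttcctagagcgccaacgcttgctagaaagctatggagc
Greb1: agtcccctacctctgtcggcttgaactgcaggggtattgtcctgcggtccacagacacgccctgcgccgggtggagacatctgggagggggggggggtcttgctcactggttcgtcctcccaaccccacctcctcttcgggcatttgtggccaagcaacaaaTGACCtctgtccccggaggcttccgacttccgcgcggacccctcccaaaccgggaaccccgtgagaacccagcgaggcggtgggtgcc
Esr2: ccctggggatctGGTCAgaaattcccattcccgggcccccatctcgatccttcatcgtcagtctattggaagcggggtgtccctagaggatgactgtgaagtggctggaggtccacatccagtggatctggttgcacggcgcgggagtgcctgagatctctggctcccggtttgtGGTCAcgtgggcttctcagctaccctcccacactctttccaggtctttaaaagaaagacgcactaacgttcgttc

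The palindromic estrogen response element, searched as GGTCANNNTGACC on both strands, was in no promoter window of the 5 genes, and 0.064% of all 32851 RefSeq promoter windows of the same length held it. Its arm GGTCA, which is part of the full element, stood once in the Greb1 window shown and 2 times in the Esr2 window. The window of the other Greb1 start, not shown, held the arm 2 times. Of all windows 35.2% had at least 1 match. The GC box, GGGCGG, stood once in the Pgr window and was in 32.7% of all windows. Neither the arm nor the GC box was found in the windows of Esr1 and Gper1. These matches say only which letters these windows hold.

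In RefSeq (GRCm38), Esr1 lies at chr10:4611989-5005633 on the plus strand, Pgr at chr9:8898900-8968611 on the plus strand and Esr2 at chr12:76120419-76177259 on the minus strand, where the pseudogene Gm7862 lies within its span. Gper1, at chr5:139423150-139427800 on the plus strand, lies inside the span of 3110082I17Rik, a gene on the minus strand, without sharing exon bases. Greb1 lies at chr12:16670615-16801394 on the minus strand, and 736 of its exon bases (7.683%) are shared with Gm48140 in GENCODE M21. The library kit does not mark strand, so reads over such shared bases cannot be told apart.

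Markers of neighbouring tissue were read before the receptors, since the labels name the medial POA within the whole brain. All 8 preoptic markers were detected, and their summed level ran from 207.6 to 261.8 CPM (a gene's reads relative to the library's total, scaled by TMM), most of it from Calb1 at a mean of 174.3 CPM, with Hmx2 lowest at 0.485 CPM. The 7 striatal markers summed to 2046 to 4084 CPM, led by Ppp1r1b at 900 CPM, so RNA of these markers was present in every mouse. The preoptic sum mostly follows Calb1, and neither sum measures the share of its tissue in the cut block. Choroid plexus markers, led by Ttr, ran from 35.2 to 2167 CPM over the mice. Markers of the mediobasal hypothalamus summed to a median of 3.20 CPM and 2 of the 6 did not pass the filter on low counts, with Nr5a1 at 0.0901 CPM. Anterior pituitary markers had a median sum of 1.22 CPM, and 4 of the 6 did not pass. One library stood apart before any of these results: dnFGFR OS replicate 5 scored 69.3 on the first principal component (16.2% of the variance) and the other mice from -29.8 to 16.0.

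Pgr gave the most reads of the 5 genes and Esr2 the fewest. Pgr was measured at 33.0 ± 3.53 CPM (SD, n = 20), from 25.8 to 39.8. Esr1 was at 5.67 ± 1.20 CPM, Gper1 at 4.14 ± 0.884, Greb1 at 2.94 ± 1.05 and Esr2 at 0.493 ± 0.213. Esr2 rested on 3 to 36 reads per mouse, against 948 to 1406 for Pgr. At this depth counting error alone gives Esr2 a coefficient of variation of 24.0% and Pgr 2.93%, while the mice varied by 43.3% and 10.7%.

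Levels of different genes were compared only after division by exon length, since Esr1 has 13661 exon bases and Gper1 2537. This length joins the exons of all transcripts of a gene, so it can exceed that of the transcripts expressed. The order of the genes depends on it, and in undivided CPM the mean of Esr1 was above that of Gper1. On that scale Pgr stood at 3.86 CPM per kb, Gper1 at 1.63, Esr1 at 0.415, Greb1 at 0.307 and Esr2 at 0.146. Pgr exceeded Gper1 in 20 of 20 mice, by 1.70 to 4.56 times, and Gper1 exceeded Esr1 in 20 of 20 mice. The neighbours Esr1 and Greb1 kept this order in only 15 of 20 mice, and Greb1 exceeded Esr2 in 19. The mean of Pgr per kb was 9.31 times that of Esr1 and 26.4 times that of Esr2. Among 17035 genes with an exon length the median was 4.99 CPM per kb, so that Pgr stood at the 43.8th percentile, Gper1 at 27.9, Esr1 at 11.8, Greb1 at 9.42 and Esr2 at 4.35.

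**Figure D1:**
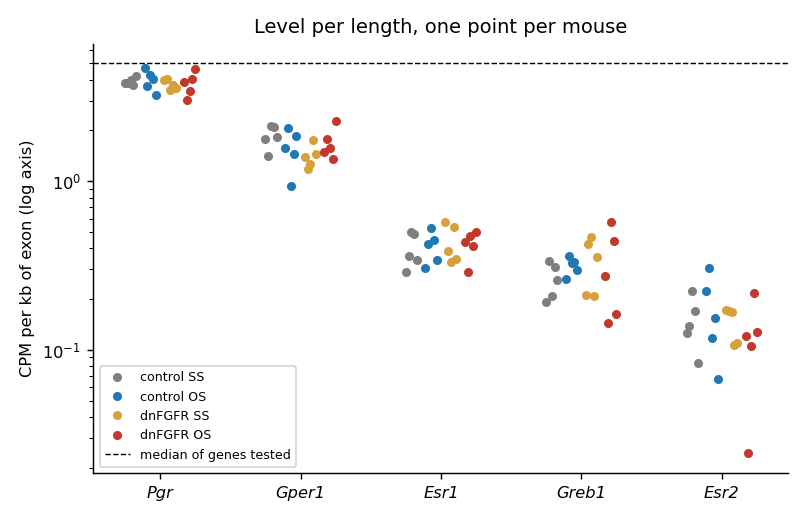
Level of each gene in CPM per kb of exon (log axis), one point per mouse, colored by group, with a dashed line at the median of the genes tested (4.99). All points lie under that line, and the clouds of Esr1 and Greb1 overlap while Pgr lies above Gper1.

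The first question was whether OS housing changed these genes, in control and in dnFGFR mice, and the second whether the genotypes differed within a housing. None of the 5 genes passed an adjusted p under 0.1 (edgeR quasi-likelihood test, Benjamini-Hochberg over all genes) in any comparison. Their smallest adjusted p was 0.80 for OS against SS housing in control mice, where 0.124% of 17004 genes passed, and 0.791 in dnFGFR mice, where 0% of 16944 passed. For dnFGFR against control it was 0.441 in SS mice, with 0.2% of 16992 genes passing, and 0.841 in OS mice, with 0.0531% of 16941 passing. For the interaction it was 0.963, and 0% of 17445 genes passed. With the unadjusted p under 0.05, 0 of the 5 genes passed in either housing comparison, against 7.2% of all genes in control mice and 6.72% in dnFGFR mice. Gper1 alone passed that level between genotypes in SS mice, where 8.63% of all genes did, and none passed in OS mice (7.02% of all genes) or in the interaction (3.41%). DESeq2 also called 0 of the 5 in each comparison at an adjusted p under 0.1. In bulk tissue, fewer cells that express a gene and less RNA per cell cannot be told apart.

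**Figure D2:**
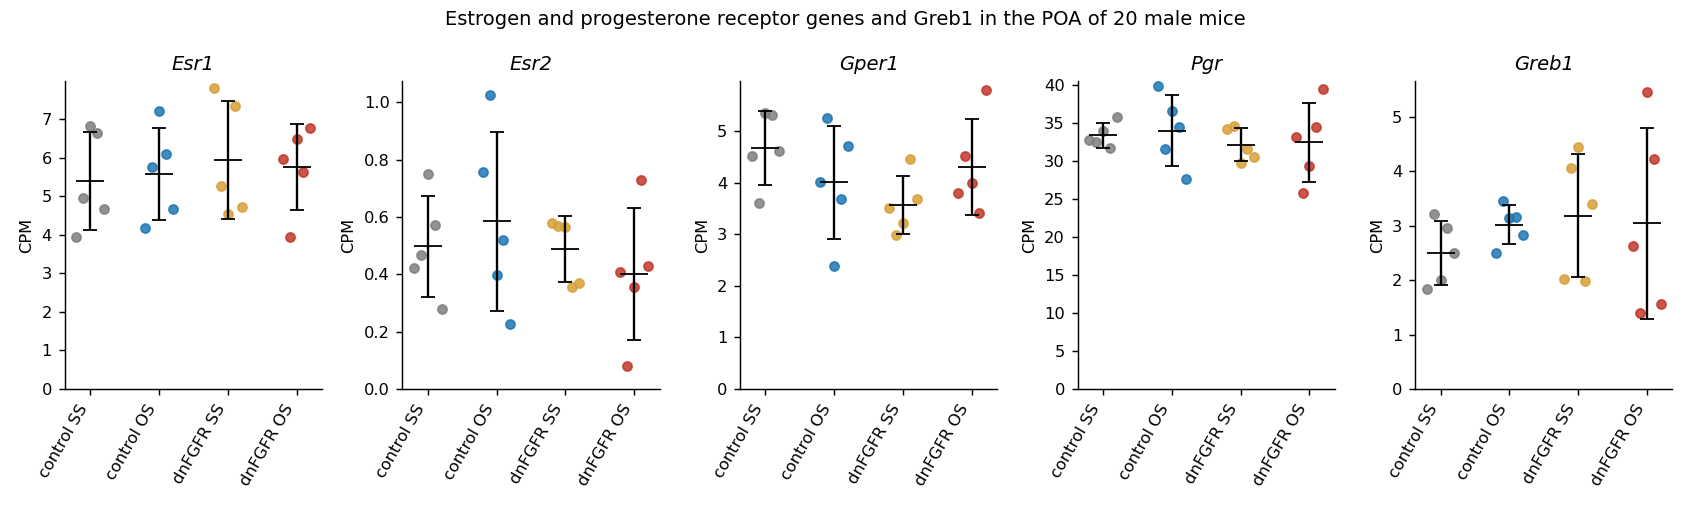
CPM of each gene (linear axis from 0, a separate scale per gene), one point per mouse, with the group mean and SD in black. The 4 groups overlap for every gene, and the spread of Greb1 is widest in dnFGFR OS mice, from 1.39 to 5.46.

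Among the nuclear estrogen receptors, Esr1 did not pass in any comparison. Control SS mice had 3.94, 4.66, 4.95, 6.63 and 6.83 CPM, and control OS mice 4.17, 4.66, 5.76, 6.09 and 7.21. The dnFGFR SS mice had 4.53, 4.72, 5.26, 7.35 and 7.80 CPM, and dnFGFR OS mice 3.95, 5.63, 5.96, 6.49 and 6.78. Each group spanned a low and a high end with a similar range, and all groups overlapped. The log2 fold change of OS against SS was 0.045 in control mice, with a 95% interval of -0.34 to 0.43, and -0.041 in dnFGFR mice (-0.46 to 0.37). Between genotypes it was 0.13 in SS mice (-0.27 to 0.53) and 0.047 in OS mice (-0.35 to 0.44). These intervals allow a change of up to 0.53 on the log2 scale.

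Esr2 had the fewest reads of the 5 genes and the widest intervals in the 4 pairwise comparisons and the interaction. It ran from 0.28 to 0.75 CPM in control SS mice with a median of 0.467, and from 0.227 to 1.03 in control OS mice with a median of 0.518. In dnFGFR SS mice it ran from 0.357 to 0.58 (median 0.566), and in dnFGFR OS mice from 0.0818 to 0.728 (median 0.409). The lowest mouse, dnFGFR OS replicate 2, had 3 reads. The lowest group mean was that of dnFGFR OS mice, 0.400 ± 0.230 CPM (SD, n = 5), and the highest that of control OS mice, 0.585 ± 0.313. The difference between them was -0.54 on the log2 scale, with a 95% interval of -1.63 to 0.55 (edgeR adjusted p = 0.841). It was -0.24 without control OS replicate 2, -0.28 without dnFGFR OS replicate 2 and -0.87 without dnFGFR OS replicate 4. OS against SS housing gave 0.23 on the log2 scale in control mice (-0.62 to 1.08) and -0.29 in dnFGFR mice (-1.22 to 0.65), and between genotypes in SS mice it was -0.027 (-0.71 to 0.65).

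Gper1, the membrane estrogen receptor, gave the smallest p of the 5 genes, between genotypes in SS mice. Control SS mice had 3.60, 4.51, 4.61, 5.32 and 5.36 CPM, and dnFGFR SS mice 2.98, 3.23, 3.51, 3.69 and 4.46. All 5 dnFGFR SS mice lay below the control SS median of 4.61, although the groups overlapped. The means were 4.68 ± 0.719 and 3.57 ± 0.566 CPM (SD, n = 5 each). The log2 fold change was -0.39 (SE 0.146), with a 95% interval of -0.70 to -0.077. In the edgeR fit the unadjusted p was 0.0182 and the adjusted p 0.441, so the difference did not hold over all genes tested. In OS mice the log2 fold change between genotypes was 0.10 (-0.36 to 0.56), and the interaction was 0.49 (SE 0.263, edgeR adjusted p = 0.963).

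Control OS mice had 2.38, 3.69, 4.02, 4.72 and 5.25 CPM of Gper1, and dnFGFR OS mice 3.42, 3.80, 4.00, 4.52 and 5.80. OS housing thus gave a log2 fold change of -0.22 in control mice (-0.62 to 0.17) and 0.27 in dnFGFR mice (-0.11 to 0.65), neither of which passed. The surrounding gene 3110082I17Rik, chosen after its values were seen, was at 5.42 ± 0.448 CPM in control SS mice and 5.49 ± 0.949 in dnFGFR SS mice. Of the 34 genes that passed between genotypes in SS mice, 9 lie on chromosome 5, the chromosome of Gper1, which holds 6.08% of the tested genes with a position, and the nearest of them, A430033K04Rik, starts 0.800 Mb from it.

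Pgr was the most evenly expressed of the 5 genes, and its intervals were the narrowest. Control SS mice had 31.8, 32.5, 32.7, 34.0 and 35.8 CPM, and dnFGFR SS mice 29.8, 30.6, 31.6, 34.3 and 34.7. The OS groups were wider, with 27.6, 31.5, 34.5, 36.6 and 39.8 CPM in control mice and 25.8, 29.3, 33.2, 34.5 and 39.5 in dnFGFR mice. The highest and the lowest mice of the whole set were thus OS-housed, in both genotypes. The group means ran from 32.2 CPM in dnFGFR SS mice to 34.0 in control OS mice, a ratio of 1.06. The log2 fold change of OS against SS was 0.027 in control mice (-0.15 to 0.21) and 0.013 in dnFGFR mice (-0.22 to 0.24). Between genotypes it was -0.052 in SS mice (-0.18 to 0.073) and -0.065 in OS mice (-0.34 to 0.21).

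Greb1 was the gene whose spread differed most between the groups. Control OS mice had 2.51, 2.84, 3.15, 3.17 and 3.45 CPM, and control SS mice 1.83, 2.00, 2.50, 2.96 and 3.21. All 5 control OS mice lay above the control SS median of 2.50, with overlap. The log2 fold change was 0.27 (SE 0.181), with a 95% interval of -0.11 to 0.66 and an edgeR adjusted p of 0.80. The dnFGFR SS mice had 1.99, 2.03, 3.40, 4.07 and 4.44 CPM, and dnFGFR OS mice 1.39, 1.56, 2.63, 4.23 and 5.46. The coefficient of variation was 11.9% in control OS mice, 23.8% in control SS, 35.7% in dnFGFR SS and 57.5% in dnFGFR OS mice, which spanned 3.93 times from lowest to highest. No test was made of these differences in spread. The housing difference in dnFGFR mice was -0.064 (-0.87 to 0.74), and the genotype difference 0.35 in SS mice (-0.18 to 0.88) and 0.013 in OS mice (-0.70 to 0.72).

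**Figure D3:**
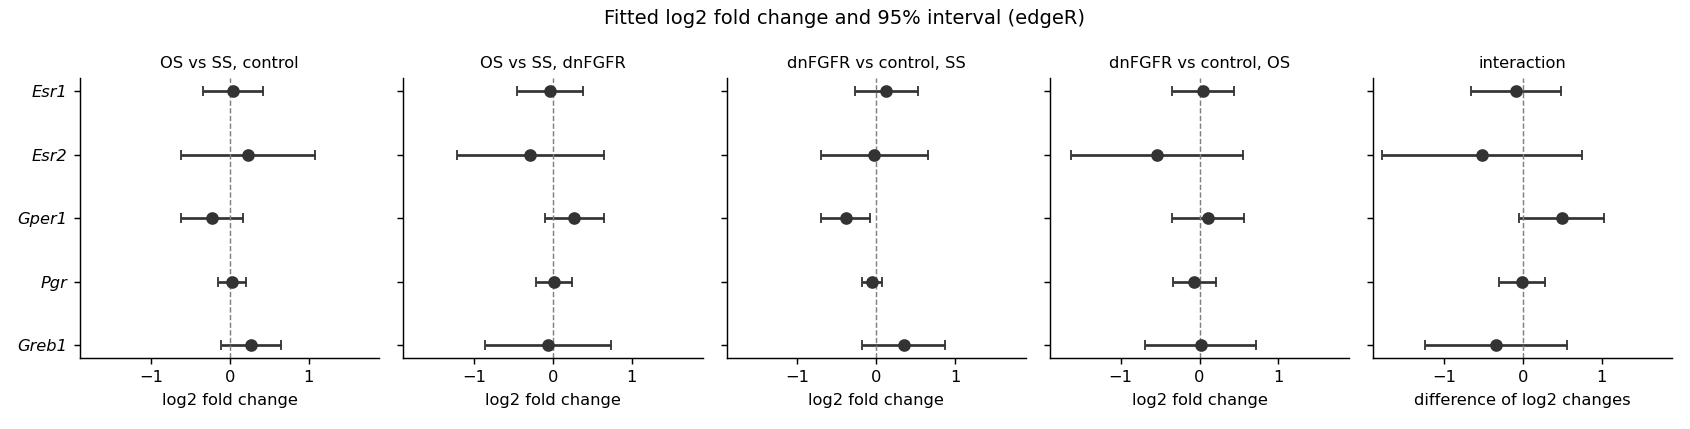
Fitted log2 fold change (points) and 95% interval (bars) of the 5 genes in the 4 pairwise comparisons, and the difference of the log2 changes for the interaction. Of all intervals only that of Gper1 between genotypes in SS mice leaves out 0, and the intervals of Pgr are the narrowest in each panel.

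Restricting each genotype to days on which SS and OS mice were both collected left 2 SS and 5 OS controls, and 2 SS and 4 OS mice with the transgene. With the day as a block, the log2 fold change of OS against SS in control mice was 0.011 for Pgr, 0.21 for Greb1 and -0.12 for Gper1. Those of Esr1 and Esr2 changed sign, from 0.045 to -0.066 and from 0.23 to -0.19. In dnFGFR mice the values were 0.0098 for Pgr, -0.10 for Greb1, 0.40 for Gper1, -0.12 for Esr1 and -0.56 for Esr2, which had been -0.041 and -0.29 without the block. None passed the adjusted p.

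The other genes of the pathway were read from fixed lists. All 7 genes of membrane progestin signaling were measured, and 0 passed in any comparison in the main edgeR fits. At an unadjusted p under 0.05, 2 were higher in OS than in SS control mice and 1 in dnFGFR mice, where 7.2% and 6.72% of all genes passed in either direction. Between genotypes 1 was higher in dnFGFR mice in each housing, where 8.63% (SS) and 7.02% (OS) of all genes passed. Pgrmc1, which encodes a heme-binding progesterone receptor membrane component, was far more abundant than Pgr, at 147.8 CPM per kb over the 20 mice against 3.86. Paqr8, a membrane progestin receptor, had the smallest p in control mice, with 121.4 ± 3.64 CPM in SS and 141.3 ± 8.29 in OS mice. This was a difference of 0.22 on the log2 scale (SE 0.0494, edgeR adjusted p = 0.183). In DESeq2, which called 157 of 17012 genes, the adjusted p of Paqr8 was 0.0166, which passed. With the day as a block it did not pass. The lowest control OS mouse had 134.1 CPM and the highest control SS mouse 125.1. Paqr8 was named for its small p, and the share of all genes with groups this separate was not counted. Pgrmc2 had the smallest p in dnFGFR mice, with 86.8 ± 4.01 CPM in SS and 97.5 ± 6.33 in OS mice (log2 0.17, adjusted p = 0.726). The list's median log2 fold change was 0.050 in control and 0.10 in dnFGFR mice, where the medians of all genes were 0.0021 and 0.0037.

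Among the 10 receptor chaperones, which hold the unbound receptors ready for hormone, 0 passed in any comparison in edgeR. At an unadjusted p under 0.05, 3 were higher in OS than in SS control mice and 1 in dnFGFR mice, where 7.2% and 6.72% of all genes passed in either direction. Between genotypes 2 were higher in dnFGFR SS mice (8.63% of all genes passed) and 0 passed in OS mice (7.02%). In control mice 9 of 10 were higher under OS housing, with a median of 0.074. In dnFGFR mice 7 of 10 were, with a median of 0.019. Ptges3, the p23 co-chaperone of HSP90, had the smallest p in both genotypes. Its mean went from 88.1 ± 1.65 CPM in SS to 97.1 ± 3.34 in OS control mice (log2 0.14, adjusted p = 0.411), and from 84.5 ± 3.50 to 100.5 ± 4.60 in dnFGFR mice (log2 0.25, adjusted p = 0.726). The highest SS mouse had 90.3 CPM against a lowest OS mouse of 93.3 in control mice, and 87.3 against 94.4 in dnFGFR mice. Ptges3 was named for its small p, and the share of all genes with groups this separate was not counted.

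Of the 13 coactivators 11 passed the filter on low counts. In edgeR 0 of these, of the 10 corepressors and of the 3 estrogen-related orphan receptors passed in any comparison. At an unadjusted p under 0.05, 2 corepressors were lower in OS than in SS dnFGFR mice (6.72% of all genes passed). In either housing comparison 0 coactivators and 0 orphan receptors passed, where in control mice 7.2% of all genes did. Between genotypes 1 corepressor, Safb, was higher in dnFGFR SS mice (log2 0.15, edgeR adjusted p = 0.406) and it also passed in the interaction (log2 -0.20, edgeR adjusted p = 0.963), where 8.63% and 3.41% of all genes passed. Safb was named after its values were seen. The median log2 fold change of OS against SS in control and in dnFGFR mice was -0.027 and -0.012 for coactivators, -0.025 and -0.017 for corepressors, and 0.012 and -0.14 for the orphan receptors. The smallest p among coactivators was that of Kat2b, a histone acetyltransferase, in control mice (log2 0.17) and of Carm1, an arginine methyltransferase, in dnFGFR mice (log2 -0.11). Among corepressors it was Tbl1xr1 in control mice (log2 -0.11). Among orphan receptors it was Esrrg in control (log2 0.038) and Esrra in dnFGFR mice (log2 -0.28).

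Estrogen-responsive genes held the 1 gene of all lists that passed in the main edgeR fits, in a comparison where 0.2% of all genes did. Ccnd1, which encodes cyclin D1 and is an estrogen target in breast cells, was lower in dnFGFR SS mice, at 28.2 ± 1.76 CPM, than in control SS mice, at 42.0 ± 3.83 (SD, n = 5 each). The highest dnFGFR SS mouse had 30.4 CPM and the lowest control SS mouse 38.1. How many of all genes had groups this separate was not counted. The log2 fold change was -0.57 (SE 0.067, edgeR adjusted p = 0.00342). In OS mice Ccnd1 was at 29.6 ± 2.07 CPM in dnFGFR and 39.8 ± 5.02 in control mice. The difference was -0.42 on the log2 scale (SE 0.0964), with an edgeR adjusted p of 0.329, which became 0.0278 in DESeq2, 0.0364 with all 4 groups in 1 fit, 0.617 with a replicate block and 0.102 to 0.943 on leaving out each mouse. The interaction for Ccnd1 was 0.15 (adjusted p = 0.963). Of the 16 listed genes 15 were tested, and their median log2 fold change between genotypes was -0.0098 in SS mice, where 7 were higher and 8 lower, and -0.13 in OS mice, where 4 were higher and 11 lower. At an unadjusted p under 0.05, 2 of the 15 were lower in dnFGFR SS mice (8.63% of all genes passed), and 1 was higher and 1 lower in dnFGFR OS mice (7.02%). In OS against SS control mice 2 were higher and 1 lower (7.2%), and in dnFGFR mice 0 passed (6.72%). For OS against SS housing the medians were 0.13 in control and 0.041 in dnFGFR mice. The smallest p there was that of Tgfa, a growth factor, in control mice (log2 -0.18, adjusted p = 0.498) and of Penk, the enkephalin precursor, in dnFGFR mice (log2 -0.22, adjusted p = 0.77).

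**Figure D4:**
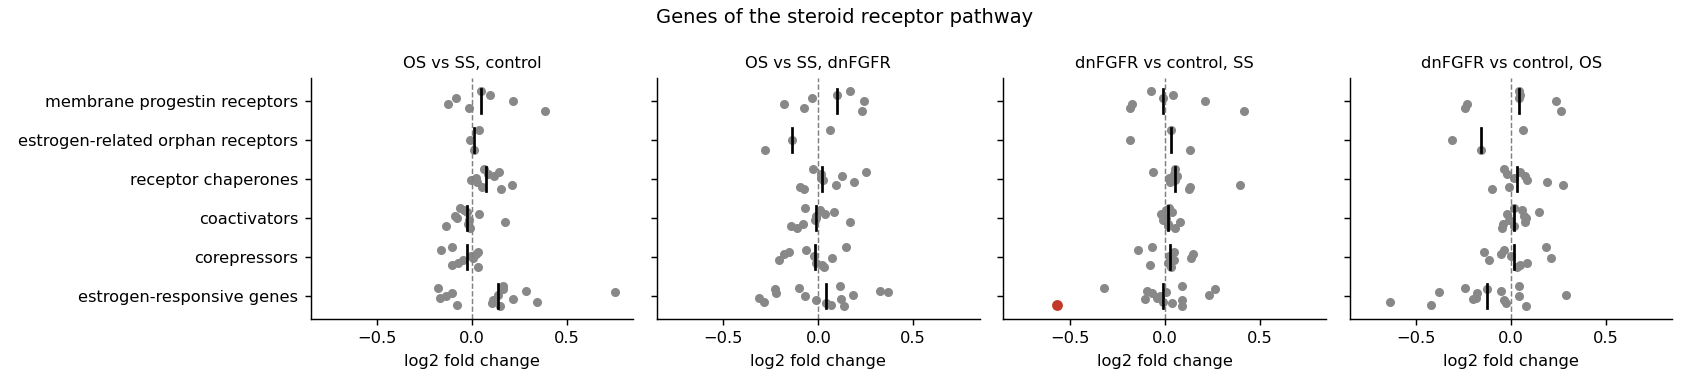
Log2 fold change of each tested gene (points) in the 6 pathway lists for the 4 pairwise comparisons. A black bar is the list's median, and genes with an edgeR adjusted p under 0.1 are in red. The single red point is Ccnd1 at -0.57 between genotypes in SS mice.

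Aromatase itself, on the preoptic list, was scarce, at 0.125 CPM per kb beside 0.146 for Esr2. Cyp19a1 had 0.420 ± 0.295 CPM in control SS, 0.486 ± 0.107 in control OS, 0.540 ± 0.135 in dnFGFR SS and 0.817 ± 0.104 in dnFGFR OS mice. The last group ran from 0.709 to 0.978 CPM, and the highest dnFGFR SS mouse had 0.685. How many of all genes had groups this separate was not counted. The log2 fold change of OS against SS in dnFGFR mice was 0.59 (95% interval 0.013 to 1.17), with an unadjusted p of 0.0458 and an adjusted p of 0.726 in edgeR. Between genotypes in OS mice it was 0.75 (0.15 to 1.34), with an unadjusted p of 0.0183 and an adjusted p of 0.655 in edgeR. In control mice the preoptic gene with the smallest p was Gal, which encodes galanin (log2 0.34, adjusted p = 0.701), and between genotypes in SS mice it was Gnrh1, which encodes GnRH (log2 -0.67, unadjusted p = 0.00489, adjusted p = 0.308 in edgeR).

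The preoptic list as a whole was split in direction. Of its 8 genes, 5 were higher and 3 lower under housing in control mice (median log2 0.030), and 3 were higher and 5 lower in each of the other 3 pairwise comparisons, with medians of -0.027 (OS against SS, dnFGFR), -0.0076 (dnFGFR against control, SS) and -0.040 (dnFGFR against control, OS). An unadjusted p under 0.05 was reached by 0, 1, 1 and 1 of the 8, in the same order, against 7.2%, 6.72%, 8.63% and 7.02% of all genes. Cyp19a1 and Gnrh1 were thus the single genes of the list at that level in their comparisons.

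The tissue lists moved as follows beside these results, and 0 of their genes passed in the main edgeR fits. For OS against SS housing in control mice, Cldn5 and Rgs9 passed in DESeq2 (adjusted p = 0.00155 and 0.0166), which called 157 of 17012 genes. In edgeR Cldn5 also passed with RLE size factors (adjusted p = 0.0993) and with no filter (0.0759), and Clic6 with the replicate block (0.0659). With the day as a block, none of Cldn5, Rgs9 and Clic6 passed. All 7 striatal genes were lower in each of the 4 pairwise comparisons, with medians of -0.086 (OS against SS, control), -0.21 (OS against SS, dnFGFR), -0.19 (dnFGFR against control, SS) and -0.28 (dnFGFR against control, OS). At an unadjusted p under 0.05, 3, 2, 5 and 5 of the 7 passed, in the same order, against 7.2%, 6.72%, 8.63% and 7.02% of all genes. The smallest p in the housing comparisons was that of Rgs9 in control mice (log2 -0.18) and Ppp1r1b in dnFGFR mice (log2 -0.42). The striatal genes thus had 1 direction in all 4 pairwise comparisons.

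All 5 choroid plexus genes were higher in OS mice, with medians of 1.52 in control and 0.41 in dnFGFR mice, where Clic6 (log2 0.53) and Kcnj13 (log2 0.90) had the smallest p. Of the 5, 2 had an unadjusted p under 0.05 in control mice (7.2% of all genes) and 0 in dnFGFR mice (6.72%). Without dnFGFR OS replicate 3, Kcnj13 turned to -0.30. Between genotypes 4 were higher and 1 lower in SS mice (median 0.060), and all 5 were lower in dnFGFR OS mice (median -0.81). An unadjusted p under 0.05 was reached by 0 in SS mice (8.63% of all genes) and by 0 in OS mice (7.02%). All 3 endothelial genes were lower in OS mice among controls (median -0.095), with Cldn5 at -0.46 (edgeR adjusted p = 0.104). In dnFGFR mice Cldn5 was at -0.24, and from -0.36 to -0.062 with 1 mouse left out, while Flt1 (0.065) and Pecam1 (0.11) were higher, for a list median of 0.065.

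Under housing the glial lists were split or near 0 in control mice. Of 4 oligodendrocyte genes 3 were higher and 1 lower in each genotype (medians 0.088 in control and 0.13 in dnFGFR mice), with Mobp at 0.26 the smallest p in control mice. Of 3 microglial genes 2 were higher and 1 lower in each (medians 0.0053 and 0.22), with the smallest p for C1qa (0.12) in control and P2ry12 (0.23) in dnFGFR mice, where C1qa was at -0.14. Of 3 astrocyte genes 1 was higher and 2 lower in control mice (median -0.025, smallest p for Gfap at -0.033), and all 3 were higher in dnFGFR mice (median 0.17, smallest p for Aqp4 at 0.23). The 4 mediobasal hypothalamic genes tested were split 2 to 2 in control mice (median 0.033), with Agrp at -0.22 and Pomc at 0.19, and 1 was higher and 3 lower in dnFGFR mice (median -0.18), with Agrp at 0.25 and Pomc at -0.44. The 2 anterior pituitary genes tested went in opposite directions in each, with Lhb at 0.042 in control mice and at -0.13 beside Tshb at 0.68 in dnFGFR mice. At an unadjusted p under 0.05, these 5 lists held 1 oligodendrocyte gene in control mice, where 7.2% of all genes passed. In dnFGFR mice they held 1 microglial gene, where 6.72% of all genes passed.

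Between genotypes in SS mice, where 8.63% of all genes had an unadjusted p under 0.05, all 3 endothelial genes were lower in dnFGFR mice and passed that level, with Cldn5 at -0.50 (edgeR adjusted p = 0.363). All 4 oligodendrocyte genes were lower there and 2 passed, all 3 astrocyte genes were lower and 1 passed, and of the 3 microglial genes 2 passed as lower and 1 as higher. In OS mice (7.02% of all genes) 1 endothelial and 1 oligodendrocyte gene passed as lower, and 0 astrocyte and 0 microglial genes passed. The 4 mediobasal hypothalamic genes were all lower in dnFGFR SS mice (median -0.26, 0 passed), and 1 was higher and 3 lower in dnFGFR OS mice (median -0.62, 1 passed as lower). Both anterior pituitary genes were lower in dnFGFR SS mice (median -0.57) and 1 of the 2 in dnFGFR OS mice (median -0.31), and 0 passed. The part of these tissues in the values of Esr1, Esr2, Pgr, Gper1, Greb1 and Ccnd1 was not tested by the comparisons of groups.

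Whether the 5 genes varied together was asked over the 20 mice, as Pearson's r of log2 CPM with permutation p-values. Of 10 pairs, 0 passed an adjusted p under 0.05. The largest positive r was that of Esr2 with Pgr, 0.55 (permutation p = 0.0137, adjusted p = 0.121), with a Spearman's rho of 0.40 (permutation p = 0.0825, adjusted p = 0.413). It was 0.54 on deviations from the group means and 0.43 without the 2 mice farthest from the median of Esr2. The largest negative r was that of Gper1 with Greb1, -0.50 (permutation p = 0.0242, adjusted p = 0.121), with a rho of -0.55 (permutation p = 0.0135, adjusted p = 0.135). It was -0.45 on deviations from the group means and -0.47 without the 2 farthest mice. Esr1 with its classical target Pgr gave 0.29 (permutation p = 0.207, adjusted p = 0.415), and Pgr with Greb1 -0.10 (permutation p = 0.679, adjusted p = 0.931).

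The same was asked of each gene against the mean log2 CPM of the preoptic and of the striatal list, 10 relations in all. Esr2 with the preoptic list gave an r of 0.59 (permutation p = 0.00712, adjusted p = 0.0492), and Greb1 with the preoptic list an r of 0.56 (permutation p = 0.00983, adjusted p = 0.0492). The rho values were 0.43 (permutation p = 0.0604, adjusted p = 0.302) and 0.49 (permutation p = 0.0306, adjusted p = 0.302). Without the 2 mice farthest from the median of the gene, r fell to 0.19 for Esr2 and to 0.34 for Greb1, so that the relation of Esr2 rests on those mice and that of Greb1 was weaker without them. Without dnFGFR OS replicate 5, r rose to 0.64 for Esr2 (permutation p = 0.00501, adjusted p = 0.0501) and fell to 0.48 for Greb1 (permutation p = 0.0368, adjusted p = 0.184). The other 8 relations, with r from -0.28 to 0.25 apart from 0.30 for Esr2 with the striatal list, did not pass.

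The genes whose pattern over the 20 mice was most like that of Esr1 and Pgr were found among 17444 others by Pearson's r of log2 CPM, as a description. The points share a library kit, a way of cutting the tissue and the same 20 libraries, and no p is given. For Esr1 the likest were Dync2h1 (0.81), Gprasp1 (0.78), Dnajc27 (0.78), Impact (0.77) and Camk2d (0.77). On deviations from group means they were Impact (0.85), Dnajc27 (0.83), Camk2d (0.83), Cxxc4 (0.82) and Alg2 (0.82). For Pgr they were Ubn2 (0.92), Ino80d (0.89), Zfp704 (0.89), Ercc6 (0.87) and Ppip5k2 (0.87), and on deviations they included Ubn2 (0.92), Gabpb2 (0.92), Tnrc6b (0.91) and Ino80d (0.90). The partners of Pgr named here have long exon sequence, from 12851 bases in Ercc6 to 23677 in Tnrc6b, where the median gene has 4111 and Pgr 8546.

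Greb1 was added to this search after its values were seen. Its likest genes were Agt (0.87), Calb2 (0.84), Gstm6 (0.83), Sytl4 (0.82) and Plbd2 (0.81), and on deviations from group means Calb2 (0.89), Agt (0.88), Ak7 (0.88), Fam216b (0.85) and Dhrs11 (0.85). Calb2 encodes the calcium-binding protein calretinin, and Agt encodes angiotensinogen, which astrocytes make. In the dnFGFR OS mouse with the highest Greb1 (5.46 CPM), Calb2 was at 80.2 CPM, Ttr at 1992 and the striatal sum at 2046 CPM, the lowest of all mice. In the dnFGFR OS mouse with the lowest Greb1 (1.39 CPM), Calb2 was at 30.7 CPM, Ttr at 0.790 and the striatal sum at 2872 CPM. Other mice did not follow this contrast. Ttr was at 336.8 CPM in dnFGFR OS replicate 5, where Greb1 was at 1.56 CPM. It was at 1793 CPM in control OS replicate 2, where Greb1 was at 3.45 CPM. Over the 20 mice Greb1 with the striatal list gave an r of -0.28 and a rho of -0.072, which did not pass. The part of the dissection in the spread of Greb1 was not tested.

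**Figure D5:**
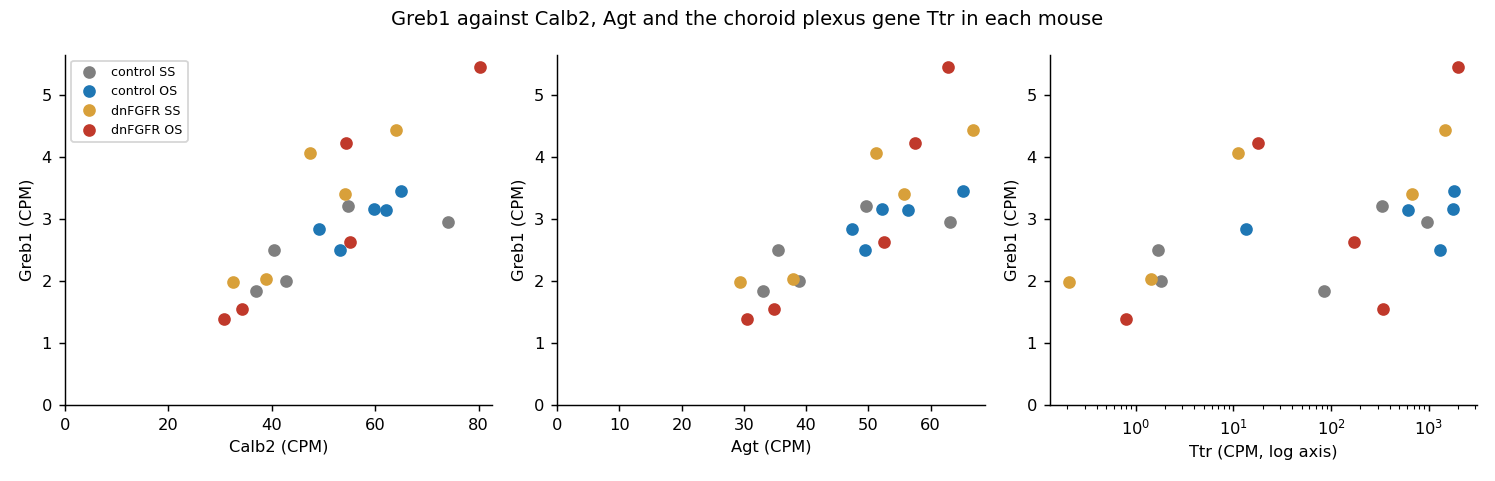
Greb1 CPM of each mouse against Calb2 and Agt CPM (linear axes) and against Ttr CPM (log axis), colored by group. Pearson's r on the log2 scale was 0.84 with Calb2 and 0.87 with Agt, with exceptions such as a control SS mouse at 74.1 CPM of Calb2 and 2.96 CPM of Greb1, and 2 mice with Ttr at 11.03 and 17.8 CPM have Greb1 values of 4.07 and 4.23.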

How the data were processed

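POA RNA was isolated per mouse (RNeasy) and libraries were made with the NEBNext Ultra RNA kit. The authors had reads aligned with HISAT2 to GRCm38 and deposited whole-number counts per RefSeq gene made with Rsubread, without normalization. Options for multi-mapping reads are not given in the sources used here. DESeq2 1.36.0 is named in the submitters' processing notes. The table held 20 further columns of no sample used here.

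The main test was the quasi-likelihood test of edgeR 4.0.16 (TMM, filterByExpr, adjusted p under 0.1) in R 4.3.3, each comparison on its own groups and the interaction over 20 mice, where 17445 genes passed the filter. CPM were TMM-scaled. Exon lengths came from GENCODE M21, another annotation of the same genome. Correlations used log2 CPM with a prior count of 2 and 100000 permutations. The edgeR test was tried on simulated counts with the same dispersion for all genes. Only genes with more reads than Esr2 were changed there, so the trial does not cover Esr2. Replicates are separate mice by the study's design. Within groups, 40 library pairs differed beyond sampling noise, with a chi-square per gene of 9.51 to 126.8. This measure cannot tell separate mice from separate libraries of the same mouse.

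The 5 genes and all lists were chosen with earlier results of these data known. Named genes are the 5, list genes with an adjusted p under 0.1, the list gene with the smallest p in each housing comparison, and the 5 likest genes of Esr1 and Pgr, of which some are not reported here. Alternatives were DESeq2 1.42.0, RLE size factors, no filter, 1 fit of 4 groups, a replicate block, dates and leaving out mice.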

Additional observations from a re-analysis of the deposited data

How the results depend on the processing

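The count of the 5 genes that passed stayed at 0 in the 5 comparisons under DESeq2, RLE size factors, no filter on low counts, the replicate block and leaving out each mouse, in the 4 pairwise ones with all 4 groups in 1 fit, and in the 2 housing ones on dates with both housings. Over all genes DESeq2 called 157 (housing, control), 5 (housing, dnFGFR), 223 (genotype, SS) and 78 (genotype, OS), against 21, 0, 34 and 9 in edgeR, and all 4 groups in 1 fit called 0, 0, 29 and 45. The count of correlations with tissue lists that passed went from 2 to 0 without dnFGFR OS replicate 5, while r of Esr2 with the preoptic list rose to 0.64 (adjusted p = 0.0501), and r of Pgr with Greb1 became 0.071.

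The replicate numbers did not pair the mice, since deviations of same-numbered mice correlated from -0.23 to 0.26 and in each comparison at most 1 of 5 numbers correlated best with its own. With the replicate block, edgeR called 23, 0, 41 and 3 genes, Gper1 between genotypes in SS mice was -0.39 (adjusted p = 0.535), Greb1 between genotypes in OS mice turned to -0.15 and Lhb under housing in control mice to -0.054. On dates with both housings in control mice, Esr1 turned to -0.066, Esr2 to -0.19, Lhb to -0.063 and Ccnd1 to 0.0040.

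Leaving out each mouse in turn changed the sign of some log2 fold changes, among them that of Kcnj13, at 0.90 with all mice. Under housing in control mice the values ran from -0.067 to 0.14 for Esr1, -0.074 to 0.43 for Esr2, -0.035 to 0.091 for Pgr, -0.21 to 0.30 for Lhb, -0.089 to 0.0014 for Gfap, -0.014 to 0.19 for C1qa and -0.0019 to 0.11 for Esrrg. In dnFGFR mice they ran from -0.12 to 0.077 for Esr1, -0.38 to 0.13 for Greb1, -0.067 to 0.090 for Pgr and -0.30 to 1.95 for Kcnj13. Between genotypes they ran from -0.18 to 0.16 for Esr2 in SS mice, and in OS mice from -0.040 to 0.16 for Esr1, -0.30 to 0.20 for Greb1, -0.034 to 0.22 for Gper1 and -0.15 to 0.0075 for Pgr. Some values kept their sign but moved by over 1.5 times: -0.62 to -0.016 for Esr2 under housing in dnFGFR mice, -0.87 to -0.24 for Esr2 between genotypes in OS mice, 0.011 to 0.23 for Esr1, 0.20 to 0.48 for Greb1 and -0.081 to -0.026 for Pgr between genotypes in SS mice, -0.34 to -0.085 for Gper1 and 0.18 to 0.37 for Greb1 under housing in control mice, and 0.14 to 0.36 for Gper1, -0.36 to -0.062 for Cldn5, -0.69 to -0.24 for Pomc and -0.31 to -0.13 for Penk in dnFGFR mice. Under housing in control mice so did Agrp (-0.28 to -0.12), Gal (0.21 to 0.42), Mobp (0.16 to 0.32) and Ccnd1 (-0.11 to -0.0089), and in dnFGFR mice Aqp4 (0.15 to 0.33) and Ccnd1 (0.031 to 0.11). For the interaction the values ran from -0.18 to 0.042 for Esr1, -0.088 to 0.071 for Pgr, -0.83 to -0.20 for Esr2, -0.64 to -0.14 for Greb1 and 0.089 to 0.19 for Ccnd1. Gper1 between genotypes in SS mice kept its direction, from -0.48 to -0.33, with adjusted p from 0.275 to 0.699, and Ccnd1 there passed each time, with adjusted p from 0.00439 to 0.0170. The cause of these shifts was not tested.

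Cldn5 in control mice passed in DESeq2 (adjusted p = 0.00155), with RLE size factors (0.0993) and with no filter (0.0759). Paqr8 and Rgs9 passed in DESeq2 (0.0166 each), and Clic6 with the replicate block (0.0659). On dates with both housings, none of these genes passed. Leaving out 1 mouse, Cldn5 passed without control SS replicate 3 (0.0736) or control OS replicate 2 (0.0642), and Clic6 without control OS replicate 5 (0.0411). Esr2 had 3 to 36 reads per mouse, with a counting error of 24.0% beside a variation of 43.3% among mice.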
